A study of Mus musculus with 6 samples.

Results

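Mir132 and Mir212 are 2 of the 1155 miRNA gene rows measured in small RNA libraries of mouse embryonic fibroblasts, the connective tissue cells cultured from mouse embryos. They were taken by their gene names, and both were found in the count table and had counts in all 6 libraries. The genotypes were wild type (WT, n = 3) and Fbxw7 knockout (Fbxw7 KO, n = 3). The labels name no other treatment. They do not say which knockout allele was used or how it was made, and they do not tie any library to an embryo or a culture. If replicates shared a culture, the p-values would reflect technical spread only. FBXW7 is the part of an SCF ubiquitin ligase that selects its substrates, among them Myc, cyclin E, Jun and Notch, and the comparison asks how the miRNA profile differs when it is missing.

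Mir212 and Mir132 are neighbouring hairpins that are cut from a shared primary transcript. The transcript is best known from neurons, where the transcription factor CREB, bound to cAMP response elements at its promoter, turns it on after synaptic activity or growth factor signals. miR-132 is known there to promote dendrite growth and spine formation. The pair is also made outside the nervous system, where it is known from immune cells, blood vessels and heart.

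On the mm10 build the Mir212 hairpin lies at chromosome 11, 75173388 to 75173478, and the Mir132 hairpin at 75173682 to 75173747, both on the plus strand and 203 bases apart. In GENCODE M21 both lie in an intron of the noncoding transcript 1700016P03Rik, between exon 1, which ends at 75172597, and exon 2, which starts at 75173978. No gene on the opposite strand covers either hairpin in that annotation, and no other row of the count table overlaps them. Counting that ignored strand therefore mixed no annotated antisense gene into their values.

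The mature sequences from RefSeq (GRCm38.p6), which held both members, are shown because the arms differ in what they share. Capitals mark the seed, bases 2 to 8, with which a miRNA pairs to its targets.
miR-132-3p: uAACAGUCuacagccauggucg
miR-212-3p: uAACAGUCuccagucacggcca
miR-132-5p: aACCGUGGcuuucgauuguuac
miR-212-5p: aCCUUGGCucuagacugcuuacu
Both 3p arms carry the seed AACAGUC, which pairs with the target heptamer GACUGUU. Among the 1738 mature miRNAs of the RefSeq table this seed occurs in these 2 only. The 3p arms are identical at 17 of 22 positions, and the first 9 bases are the same. With positions counted from 1 at the 5′ end, and miR-132-3p given first, the differences are A10C, C14U, U17C, U20C and G22A. The seeds of the 5p arms, ACCGUGG and CCUUGGC, differ from each other and are each found in 1 mature miRNA.

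The hairpins are shown next because each count pools all reads over a hairpin, so that the 2 arms cannot be told apart in these values. Capitals mark the 3p arm.
Mir132 hairpin: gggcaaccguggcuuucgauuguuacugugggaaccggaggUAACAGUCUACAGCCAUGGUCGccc
Mir212 hairpin: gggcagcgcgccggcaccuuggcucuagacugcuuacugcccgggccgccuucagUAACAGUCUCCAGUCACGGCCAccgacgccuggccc
The longest run of bases that the 2 hairpins share is 10 bases. The longest run that either shares with any other hairpin of the table is also short, 10 bases for Mir132 and 11 for Mir212.

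The libraries held 2932439 to 5019700 counts, with 484 to 532 rows above 0 in each. Rows of the fibroblast list held 56.4% to 57.3% of counts in WT and 56.4% to 62.1% in Fbxw7 KO, led by Mir21a and Mir143. The highest library of each genotype stood at 0.00262% and 0.00618% for the epithelial list, 0.000438% and 0.000307% for the blood cell list, 0.023% and 0.0409% for the muscle list, and 3.98e-05% and 5.33e-05% for the pluripotent cell list, in WT and Fbxw7 KO respectively. The 2 endothelial rows were listed at 0, but they overlap each other. Also listed at 0 were 1 blood cell row, 5 muscle rows and 7 pluripotent cell rows, and 1 of each list overlaps another row. A read over 2 rows was not counted, so these shares can be too low. Most counts of the muscle list were from Mir206. The Fbxw7 transcript was not analysed here.

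Mir132 was the more abundant of the pair. Its values in CPM, the counts per 1000000 counts of the library after TMM scaling, were 417, 486 and 338 in WT replicates 1 to 3, from 2080, 2043 and 1302 counts. Fbxw7 KO replicates 1 to 3 had 327, 301 and 231 CPM, from 1036, 886 and 901 counts. The KO libraries were all lower than the WT libraries. The groups came close to each other, since the counting interval of WT replicate 3 (95% exact Poisson, 320 to 357 CPM) overlaps that of Fbxw7 KO replicate 1 (307 to 347 CPM). These intervals cover counting error only.

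Mir212 followed the same order of genotypes at a lower level. WT replicates 1 to 3 had 108.3, 108.4 and 83.7 CPM, from 540, 456 and 322 counts. Fbxw7 KO replicates 1 to 3 had 81.1, 66.6 and 63.3 CPM, from 257, 196 and 247 counts. Again the groups did not overlap, and again WT replicate 3 and Fbxw7 KO replicate 1 were the nearest libraries, with counting intervals of 74.8 to 93.4 and 71.5 to 91.6 CPM. Of all 283 tested miRNAs, 57 (20.1%) had every KO library below every WT library, and 43.8% did not overlap in either direction. That both members did not overlap is thus a common pattern in these libraries.

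**Figure D1:**
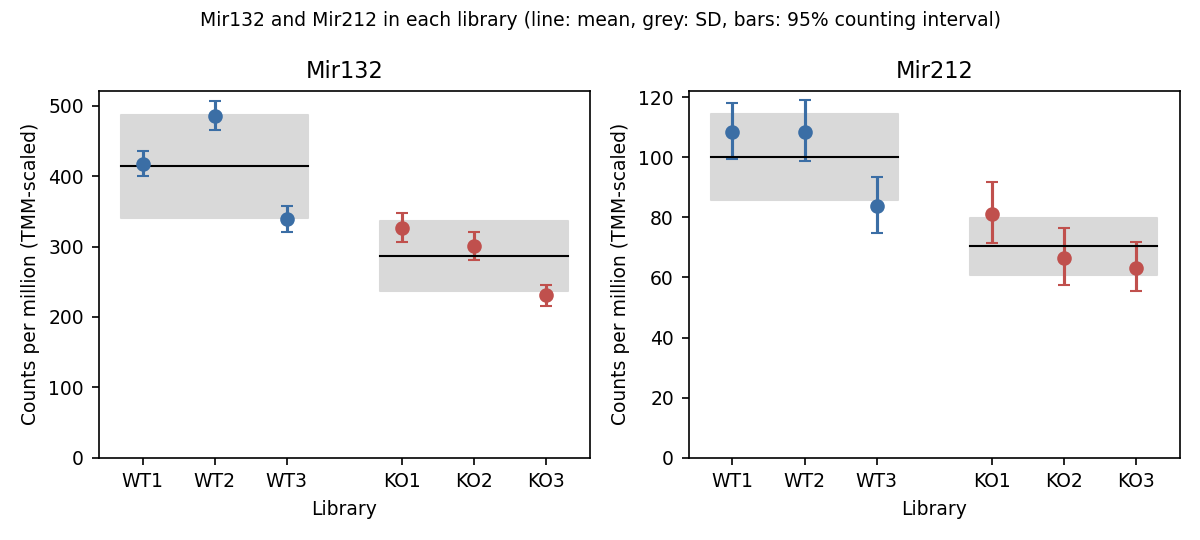
CPM (TMM-scaled) of Mir132 (left) and Mir212 (right) in the 3 WT (blue) and 3 Fbxw7 KO (red) libraries, with the mean (line), SD (grey) and 95% counting interval of each library (bars). In both panels the KO libraries lie below the WT libraries, and WT replicate 3 and Fbxw7 KO replicate 1 are nearly level.

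Neither member passed the test between genotypes, although both had lower means in Fbxw7 KO. The Mir132 mean of 286 ± 49.7 CPM in Fbxw7 KO stood against 414 ± 73.6 CPM in WT (SD, n = 3). Its log2 fold change was −0.53 (SE 0.19, 95% interval −0.95 to −0.11, edgeR quasi-likelihood unadjusted p = 0.0186, Benjamini-Hochberg adjusted p = 0.0700). The Mir212 mean of 70.3 ± 9.47 CPM in Fbxw7 KO stood against 100.1 ± 14.2 CPM in WT. Its log2 fold change was −0.51 (SE 0.18, 95% interval −0.92 to −0.10, edgeR unadjusted p = 0.0194, adjusted p = 0.0721). As a ratio of KO to WT these are 0.691 (95% interval 0.517 to 0.925) and 0.701 (0.529 to 0.93).

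Of the 2 members, 0 passed at an adjusted p of 0.05 in edgeR, against 72 of all 283 tested rows (25.4%), with 29 (10.2%) lower and 43 (15.2%) higher in Fbxw7 KO. At an unadjusted p under 0.05 both members counted, as did 101 of the 283 (35.7%). The median log2 fold change of the members was −0.52, against 0.05 over all tested rows. By unadjusted p they stood next to each other, at places 75 and 76 of 283, directly after the 72 called rows and 2 others. By log2 fold change they were also neighbours, at places 36 and 37 from the lowest.

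**Figure D2:**
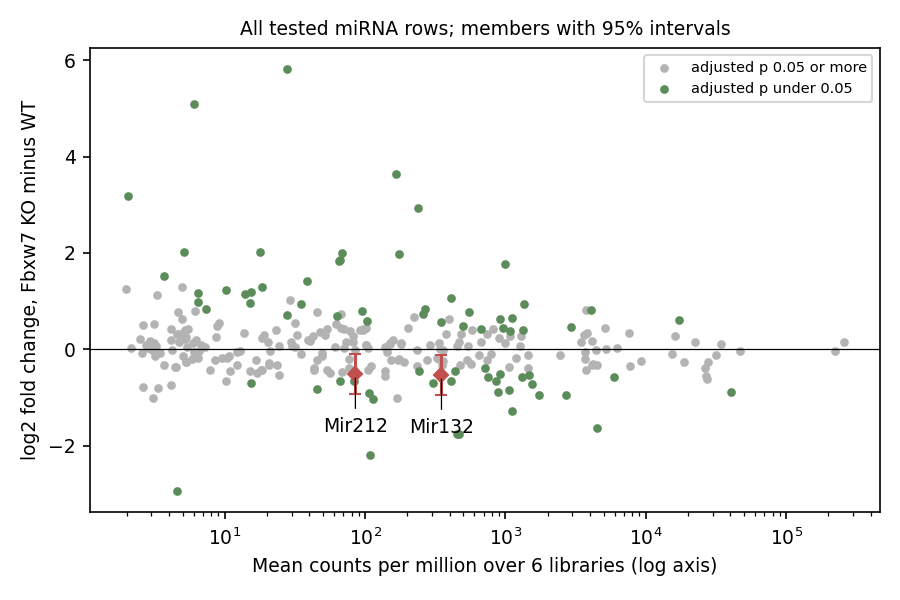
Log2 fold change (Fbxw7 KO minus WT) against mean CPM (log axis) for the 283 tested miRNA rows, with rows past an adjusted p of 0.05 in green. Mir132 and Mir212 (red diamonds, bars are 95% intervals) lie at −0.53 and −0.51, within the lower edge of the cloud of uncalled rows.

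Whether the members passed the threshold depended on the settings, while the direction was the same in all those tried. DESeq2 called both, at −0.565 for Mir132 and −0.545 for Mir212 on the log2 scale (adjusted p = 0.0331 for each). They were also called with TMM factors from rows outside the imprinted Dlk1-Dio3 region (−0.66, edgeR adjusted p = 0.0419, and −0.64, adjusted p = 0.0359) and without WT replicate 3 (−0.66, adjusted p = 0.0422, and −0.63, adjusted p = 0.0404). Mir132, but not Mir212, was also called with no filter on low counts (−0.507, edgeR adjusted p = 0.0483), where 70 of 671 rows were called. With the replicate number as a block, which is not plotted, Mir132 was called (edgeR adjusted p = 0.0278) and Mir212 was not (0.0662). That fit called 76 of 283 rows. Over the 16 settings plotted, the log2 fold change of Mir132 ran from −0.66 to −0.39 (adjusted p 0.0331 to 0.259) and that of Mir212 from −0.64 to −0.43 (adjusted p 0.0331 to 0.242). The groups of both members stayed apart under each of 5 scalings. The gap was narrow under TMM, where the lowest WT library stood at 338.5 and the highest KO library at 326.8 CPM for Mir132. Of all tested rows 43.8% also stayed apart under TMM, and their share under the other scalings was not counted.

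**Figure D3:**
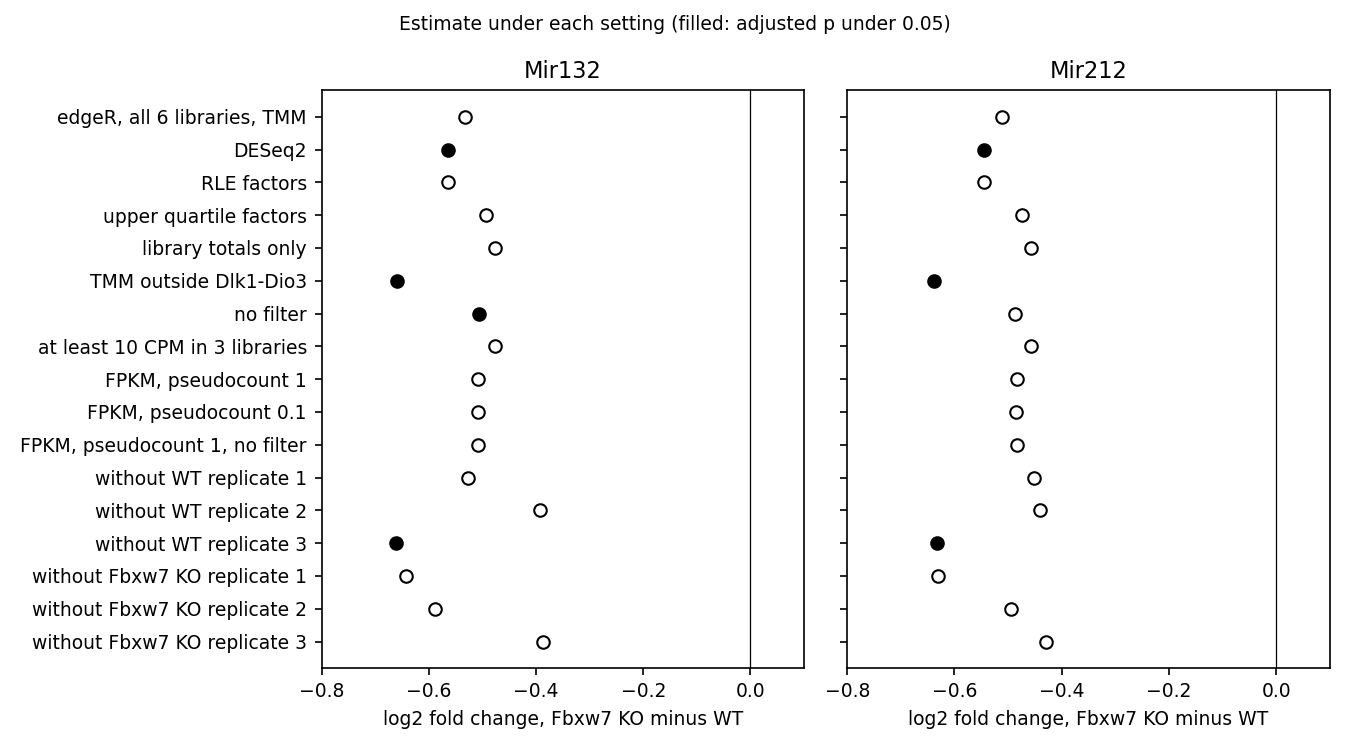
Log2 fold change (Fbxw7 KO minus WT) of Mir132 (left) and Mir212 (right) with all 6 libraries in edgeR (top) and under 16 other settings, filled where the adjusted p was under 0.05. Every estimate is below 0, and 4 of 16 for Mir132 and 3 of 16 for Mir212 are filled.

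For Mir132 the coefficient of variation between libraries was 17.8% in WT and 17.4% in Fbxw7 KO, where the counts alone would give 2.39% and 3.27%. For Mir212 it was 14.2% and 13.5%, against 4.85% and 6.58%.

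The 2 hairpins kept nearly the same proportion in every library. Mir212 made up 20.6%, 18.2% and 19.8% of the counts of the pair in WT replicates 1 to 3, and 19.9%, 18.1% and 21.5% in Fbxw7 KO replicates 1 to 3. The 95% Wilson intervals of single libraries ran from 15.9% to 24.0% in all. Its mean share of 19.8% ± 1.7 in Fbxw7 KO stood against 19.6% ± 1.2 in WT (SD, n = 3), a difference of 0.274 percentage points (exact 2-sided permutation p = 0.9, where 3 against 3 libraries cannot go below 0.1). This share does not depend on how libraries are scaled. The sign of so small a difference turned without WT replicate 2 (−0.384) or without Fbxw7 KO replicate 3 (−0.566), and the differences without 1 library reached 1.13 percentage points.

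**Figure D4:**
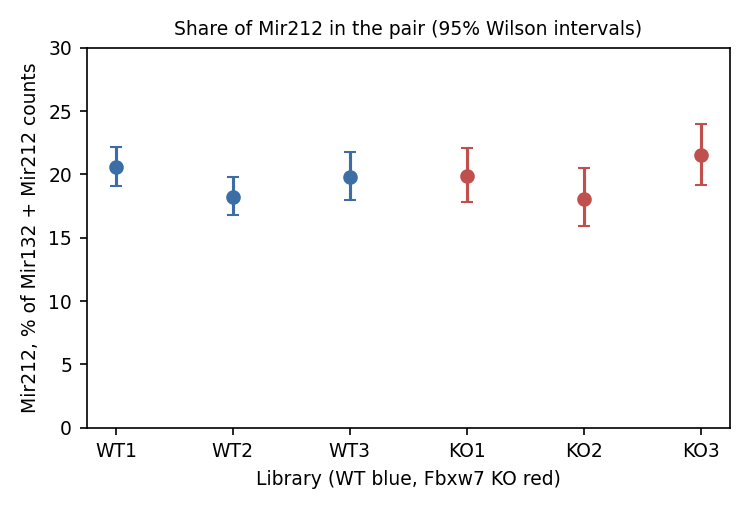
Mir212 as a percentage of Mir132 plus Mir212 counts in each library (WT blue, Fbxw7 KO red), with 95% Wilson intervals. The 6 values lie between 18.1% and 21.5%, and WT and Fbxw7 KO libraries are interspersed.

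Mir132 was above Mir212 on both scales available. In counts the ratio of Mir132 to Mir212 was 4.13 ± 0.322 in WT and 4.07 ± 0.437 in KO libraries (SD, n = 3). The authors' FPKM also divide by the length of the hairpin, 66 bases for Mir132 and 91 for Mir212, although both give mature arms of 22 or 23 bases, and this raises the ratio. In FPKM, WT libraries averaged 6208 ± 994.3 for Mir132 and 1092 ± 155.7 for Mir212, and KO libraries 4371 ± 755.9 and 779.4 ± 111.3 (SD, n = 3). The FPKM ratio of Mir132 to Mir212 was 5.69 ± 0.444 in WT and 5.61 ± 0.603 in Fbxw7 KO, and it ranged from 5.03 to 6.23 over the 6 libraries. By mean FPKM over all libraries Mir132 was the 85th and Mir212 the 147th of the 671 rows above 0, with places 78 and 134 in WT and 90 and 160 in Fbxw7 KO. The nearest rows around Mir132 were Mir1843b (5308 ± 771.3 FPKM) and Mir185 (5153 ± 1005 FPKM), whose levels did not differ from its 5289 ± 1279 FPKM by more than their spread (SD, n = 6). The nearest around Mir212 (935.5 ± 209.5 FPKM) were Mir139 (990.8 ± 406.2 FPKM) and Mir671 (867.1 ± 194.6 FPKM), again within the spread. These SDs pool both genotypes, so they also hold any difference between them. The order changed with genotype, since Mir132 was above Mir1843b and Mir185 in WT (6208 against 5863 and 4877 FPKM) and below both in Fbxw7 KO (4371 against 4753 and 5428 FPKM). Likewise Mir212 was above Mir139 and Mir671 in WT (1092 against 734.9 and 864.9 FPKM). In Fbxw7 KO it was below both (779.4 against 1247 and 869.3 FPKM).

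Mir132 and Mir212 also tracked each other from library to library. Over the 6 libraries the Pearson correlation of their log2(CPM + 0.5) values was 0.948, and it was 0.862 once each genotype's mean was removed. By that second measure some rows of other loci stood higher, such as Mir3081, at 0.969 with Mir132 and 0.941 with Mir212. The value of 0.862 is thus not particular to the pair. Mir212 ranked 7th among the 217 other rows of at least 10 CPM by likeness to Mir132, and Mir132 ranked 5th by likeness to Mir212. The median correlation over those 217 rows was −0.01 for Mir132 and −0.02 for Mir212. These correlations describe 6 libraries that share their scaling and fall into 2 genotypes, so no p is given.

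The rows most like Mir132 were Mir541 (correlation 0.993), Mir3081 (0.986), Mir182 (0.978), Mir370 (0.963) and Mir382 (0.959). Mir541, Mir370 and Mir382 are encoded in the Dlk1-Dio3 region of chromosome 12, an imprinted region whose miRNAs are expressed from the maternal allele. Of the 10 rows most like Mir132, 6 lie in that region, which holds 41 of the 217 rows compared (18.9%). For Mir212 it was 2 of the 10, a share near that of the region. Rows of the same region can vary together, so these rows are not separate hits, and enrichment was not tested. Likeness was measured over both genotypes, so the directions of these rows are a description only. Mir541 had 7247, 8138 and 5779 CPM in WT replicates 1 to 3, and 5241, 5239 and 3693 CPM in the KO replicates. As with Mir132, the highest library was WT replicate 2 and the lowest was Fbxw7 KO replicate 3. Mir541 was picked by correlation over these same libraries, so the shared order follows from the choice.

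The rows most like Mir212 were Mir3081 (0.982), Mir183 (0.965), Mir96 (0.957), Mir182 (0.951) and Mir132 itself. Mir183, Mir96 and Mir182 are made from 1 cluster on chromosome 6 that is best known from sensory organs, and all 3 were lower in Fbxw7 KO. Mir183 had 783.1, 864.3 and 429.4 CPM in WT replicates 1 to 3, and 242, 225.6 and 147 CPM in the KO replicates. Its log2 fold change was −1.76 (edgeR adjusted p = 0.00267). Mir3081, on chromosome 16, had 61, 71.07 and 42.11 CPM in WT replicates 1 to 3, and 39.12, 32.95 and 26.64 CPM in the KO replicates, with a log2 fold change of −0.82 (edgeR adjusted p = 0.037). In each of these rows WT replicate 3 was the lowest WT library and Fbxw7 KO replicate 3 the lowest KO library, as for the pair. They were picked by correlation with the pair over these same libraries. The shared order and the lower KO level follow from that choice and are a description only.

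**Figure D5:**
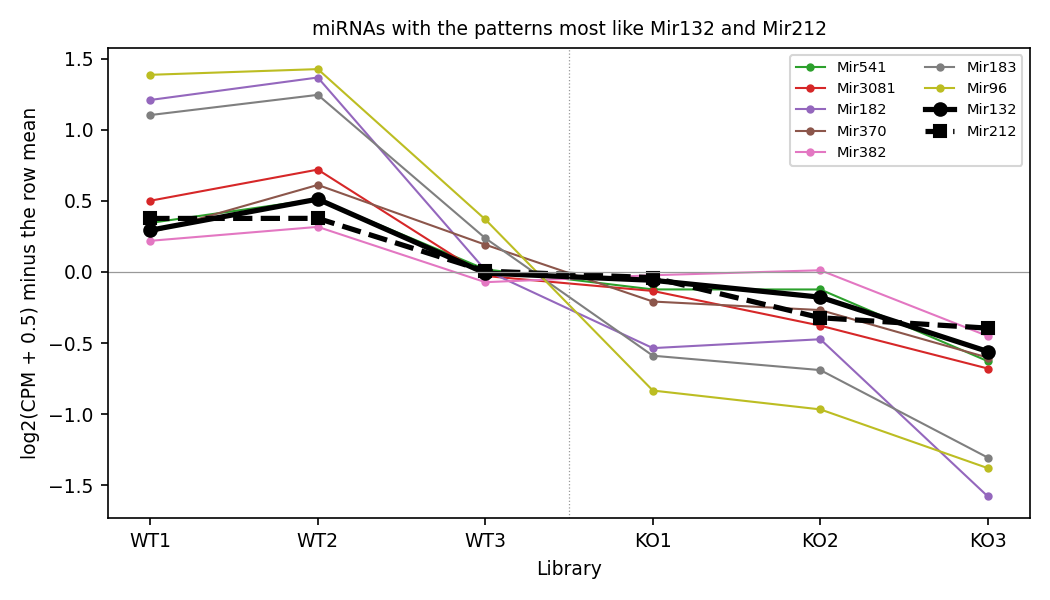
Log2(CPM + 0.5) minus the mean of each row, by library, for Mir132 (solid black), Mir212 (dashed black) and the 7 other rows that were among the 5 most like either of them. Libraries within a genotype have no order, and the lines only link the values of a row. WT replicates 1 and 2 stand highest in every row, and Fbxw7 KO replicate 3 stands lowest in each. The 7 other rows were picked for following the pair over these same libraries, so the shared shape follows from the choice.

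Other miRNAs best known from neurons did not pass the test. Of the 21 miRNAs of the neuronal list, 20 have a row, 5 of those rows were at 0 counts, and 7 could be tested. In edgeR 0 of the 7 passed, against 25.4% of all tested rows, and 0 had an unadjusted p under 0.05. DESeq2 and limma on FPKM also called 0. Mir128-1 and Mir128-2 share a mature sequence, as do Mir218-1 and Mir218-2. With 7 rows this count says little of the list. The median log2 fold change of the 7 rows was 0.04. Mir218-1 had the lowest estimate, with 95.9, 93.9 and 50.7 CPM in WT replicates 1 to 3, and 66.9, 59.8 and 46.6 CPM in the KO replicates. Its log2 fold change was −0.48 (SE 0.26, edgeR adjusted p = 0.217). Without WT replicate 3 it passed (−0.725, edgeR adjusted p = 0.0404). Mir218-2, which encodes the same 5p miRNA on chromosome 11, stood at 0.07 (adjusted p = 0.844). Mir128-1, one of the most abundant miRNAs of brain, stood at 0.10 (adjusted p = 0.722) and Mir7-1 at 0.39 (adjusted p = 0.295).

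Most rows of the neuronal list are no full measure of their miRNA. Of the 17 whose names match the RefSeq table, 14 encode a mature sequence that another gene also encodes, and reads with several alignments were left out in counting. This holds for the Mir9 rows, where Mir9-1 was listed at 0 and Mir9-2 and Mir9-3 held 1 count each over all 6 libraries, and also for Mir128-1, Mir218-1, Mir218-2 and Mir7-1. Mir124a-1 and Mir124a-2 were listed at 0 and overlap the rows of their host transcripts. Among the rows with neither limit, Mir7b held 14 counts in all, Mir137, a brain miRNA, held 6 and Mir153 was listed at 0. No mature sequence of Mir132 or Mir212 is encoded by another gene of the table. The neuronal list, which does not include the pair, held 0.0606% to 0.078% of counts in WT and 0.0637% to 0.081% in Fbxw7 KO, mostly Mir218-2 and Mir128-1. The pair itself held 0.0438% to 0.0547% in WT and 0.0306% to 0.0412% in Fbxw7 KO. In bulk libraries fewer cells that make a miRNA and less of it per cell cannot be told apart.

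Of the miRNAs known to be induced by signalling or stress factors, Mir34b and Mir34c rose, which are best known as targets of p53. Of the 11 miRNAs of this list 4 were listed at 0, among them Mir155 and Mir134, and all 4 overlap another row. Of the 5 tested, 2 rose, 0 fell and 3 did not pass, with a median log2 fold change of 0.15. Over all tested rows 25.4% were called and 15.2% were higher, so with 5 rows this count says little of the list. Mir34b stood at 1783 ± 385 CPM in Fbxw7 KO against 927 ± 254 in WT (0.94 on the log2 scale, SE 0.22, edgeR adjusted p = 0.0161), and Mir34c had a log2 fold change of 0.82 (SE 0.19, adjusted p = 0.0154). Both calls ended without WT replicate 1 (edgeR adjusted p = 0.077 and 0.0719) or without WT replicate 2 (0.0602 for both). Mir146, induced by NF-kB, averaged 5174 ± 1122 CPM in WT libraries and 5171 ± 686 CPM in KO libraries (0.00, adjusted p = 0.997). Mir21a, a target of AP-1, stood at 0.15 (adjusted p = 0.338).

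Mir221, whose transcription AP-1 and NF-kB are known to raise, had the estimate nearest to that of the pair within this list. It had 4098, 3809 and 4965 CPM in WT replicates 1 to 3, and 2565, 2833 and 4111 CPM in the KO replicates. Its log2 fold change was −0.44 (SE 0.20, edgeR adjusted p = 0.146). Its libraries did not follow the order seen in the pair, since WT replicate 3 and Fbxw7 KO replicate 3 were the highest of their genotypes and the groups overlapped. Without Fbxw7 KO replicate 3 it passed (−0.66, edgeR adjusted p = 0.0108). The Mir221 row overlaps that of Mir222, which was listed at 0, so its value is uncertain.

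No other miRNA near the pair on chromosome 11 could be tested. Within 1 Mb of Mir132 the count table has 4 other rows. Mir22hg held 22 counts over the 6 libraries and Mir6926 held 1, while Mir22 and Mir3971 were listed at 0. Mir22 overlaps the Mir22hg row, and a read over both was not counted, so its 0 is no measure of its level.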

How the data were processed

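Per the file headers, the authors made the deposited counts with featureCounts 1.6.4, 1 whole-number value per miRNA gene name and library, ignoring strand. Its command switches on neither multi-mapping nor overlapping reads, which the program leaves out by default. The deposited FPKM equal the count divided by length and by the total times a TMM factor in all 1155 rows (relative tolerance 1e-06), so they served only for levels per length and alternatives. The submitters' processing notes name mm10 as the build, and deepTools, Cufflinks 2.2.1, SAMtools 1.5 and TopHat2 2.1.1 as tools, with no role for each. Adapter trimming is not given in the sources used here.

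The test of counts was the 2-sided quasi-likelihood test of edgeR 4.0.16 (R 4.3.3), robust, with TMM factors and genotype as its single term. filterByExpr (minimum count 10, minimum total 15) kept 283 rows, over which Benjamini-Hochberg values were adjusted, with a threshold of 0.05. DESeq2 1.42.0 and limma 3.58.1, on log2(FPKM + 1) and log2(FPKM + 0.1), were alternatives, beside other scalings, filters and leaving out each library.

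The members and lists (neuronal, signalling or stress-induced, fibroblast, epithelial, blood cell, muscle, endothelial, pluripotent cell, rows within 1 Mb) were chosen with earlier results of these data known. Named beside the members are the 5 rows most correlated with each over the 6 libraries (mean of at least 10 CPM), the rows next to each by mean FPKM, and members of the neuronal, signalling and neighbour lists.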

Additional observations from a re-analysis of the deposited data

How the results depend on the processing

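The log2 fold changes of Mir132 and Mir212 were negative under every alternative run. Mir132 passed with DESeq2 (−0.565, adjusted p = 0.0331), with TMM factors from outside Dlk1-Dio3 (−0.659, edgeR adjusted p = 0.0419) and with no filter on low counts (−0.507, adjusted p = 0.0483). Mir212 passed with the first 2 of these (−0.545 and −0.638) and not with the third (−0.487, adjusted p = 0.136). Over all tested rows these 3 settings called 72 of 283, 64 of 283 and 70 of 671. With TMM factors from outside Dlk1-Dio3 the median over all tested rows moved from 0.05 to −0.07, and the split of called rows from 43 higher and 29 lower to 30 and 34. The cause was not tested.

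Leaving out 1 library gave −0.662 to −0.387 for Mir132 and −0.633 to −0.43 for Mir212, where only the fit without WT replicate 3 passed for either. It gave 34 to 78 changed miRNAs among all tested rows (72 with all libraries), and the lower counts, of 42, 35 and 34, came without WT replicate 1, WT replicate 2 and KO replicate 2 in that order. It also gave 0 to 1 changed neuronal miRNAs, 0 to 3 in the signalling or stress-induced list, and −0.566 to 1.13 percentage points for the Mir212 share of the pair. Fits with 2 libraries in a group have fewer degrees of freedom.

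The labels do not say whether libraries with the same replicate number belong together. Deviations of same-numbered libraries correlated at −0.06, 0.14 and 0.16 over the tested rows. Of the 6 libraries 3 correlated best with their own number. With 3 libraries per genotype these values cannot decide whether the numbers are pairs. With the replicate number as a block, the log2 fold change was −0.532 for Mir132 (edgeR adjusted p = 0.0278) and −0.508 for Mir212 (adjusted p = 0.0662), with 76 changed miRNAs in all. Mir221 also passed under the block, as lower (−0.458, adjusted p = 0.0355), which made 3 changed in the signalling or stress-induced list against 2 without it.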
